A study of Gallus gallus with 2 samples.

Results

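Genes of cytokine, chemokine and Toll receptor signalling were examined in the germinal disc region of the chicken oocyte, the small pale area on the yolk where the nucleus of the egg cell lies. The members were taken by gene symbol: interleukins and their receptors, CC and CXC chemokines and their receptors, ligands and receptors of the TNF superfamily, Toll-like receptors, interferons with their receptors and induced genes, and the IRF, STAT, JAK and SOCS families with MX1. The annotation gave 133 such genes, covered by 230 probe sets, of 13008 genes with a single symbol on the array, after 2 symbols that the selection leaves out. The Bx group consisted of laying hens whose bursa of Fabricius, the organ in which birds form B cells, had been removed by surgery at 17 to 18 days of incubation. The series describes these hens as IgY-deficient. The other group was control laying hens. The sources used here name neither the breed nor any sham operation of the controls, and the growth protocol of both samples mentions the bursectomy. In both groups discs came from yellow follicles ranked F5 to F7 of hens 25 weeks old, 9 discs of 3 birds were pooled, and each pool was hybridised to 1 array. There was therefore 1 Bx array and 1 control array, the spread between birds was not measured, and no difference has a replicate check or a p-value.

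Cytokines act through receptors on the cell surface. Interferon receptors and many interleukin receptors have no kinase activity of their own and use Janus kinases (JAK), which phosphorylate STAT transcription factors. SOCS proteins are induced by STATs and shut the receptors down. Toll-like receptors and the interleukin 1 receptor family share a cytoplasmic domain. Many of them use the adaptor MyD88, which leads to NF-kappa-B and, for some Toll receptors, to interferon regulatory factors (IRF). Chemokines bind G protein-coupled receptors and guide cell movement, and TNF family ligands act through TRAF adaptors or death domains. In the ovary many of these genes are known from leukocytes and from granulosa cells, which surround the oocyte.

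Values are MAS5 signals, linear intensities that the authors scaled to a common level. Where a gene had several probe sets, the brightest by mean log2 signal gave its value, and brightness of different probe sets is used here for the precision of ratios and not to compare amounts of different transcripts. A signal was counted as measured when it was above a floor, the 95th percentile of probe sets not designed for chicken, at 36.4 on the Bx array and 42.6 on the control array. As a check of the tissue, all 10 annotated oocyte and germ cell markers and all 10 annotated granulosa markers were measured in both pools. The median log2 ratio (Bx over control) was 0.43 for the oocyte list, with summed signals of 5065 in the Bx pool and 4230 in the control pool. It was -0.19 for the granulosa list, with summed signals of 93299 in the Bx pool and 98597 in the control pool. Of 20 leukocyte markers 6 were measured, with a median of 0.14, among them C1QC, 1.67-fold higher in the Bx pool. Another, CD3E, was above the floor in the Bx pool alone (72.0, against 6.25 in the control pool), C1QA and CD79B in the control pool alone, and the other 11, with PTPRC (CD45), in neither. The summed signal of the leukocyte list was 966 in the Bx pool and 869 in the control pool. Summed signals here run over all annotated markers of a list, also those under the floor. Of 9 endothelial markers 7 were measured, 5 of them higher, with a median of 0.37 and summed signals of 866 in the Bx pool and 789 in the control pool. Of 9 theca, fibroblast and smooth muscle markers 5 were measured, with a median of -0.33 and summed signals of 1807 in the Bx pool and 1969 in the control pool. In that list CYP17A1 was at 0.90 and PDGFRA at -0.96, and ACTA2 and DCN were above the floor in the control pool alone. The part of these shifts in the results below was not tested, and in pooled tissue fewer cells of a type and less RNA per cell cannot be told apart.

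Measured members were common among intracellular genes and scarcer among ligands. In all, 73 of the 133 genes (54.9%) passed the floor in both pools, against 78.2% of all named genes. Inside the cell, 15 of the 18 JAK, STAT, SOCS and IRF genes were measured (83.3%). Of the 60 receptors for Toll ligands, interleukins, chemokines and TNF ligands, 32 were measured (53.3%). Of the 36 ligands only 14 were (38.9%), and these did not include IL1B, IL2, IL10, IL13, IL15, IL17F, IL21, CCL20 or either interleukin 8 gene (IL8L1 and IL8L2). A further 10 genes were above the floor on the Bx array alone, 7.52% of members against 5.47% of all named genes, and 7 on the control array alone, 5.26% against 3.29%.

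**Figure D1:**
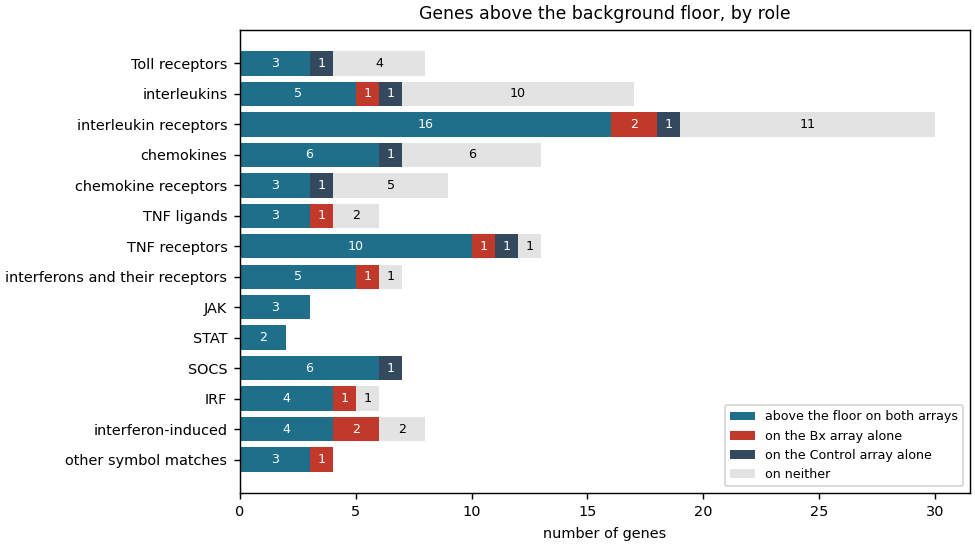
Number of genes (x axis) in each role class (y axis) whose value was above the floor on both arrays, on the Bx array alone, on the control array alone or on neither. All 5 JAK and STAT genes were measured, against 5 of 17 interleukins and 3 of 9 chemokine receptors.

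The study screened for genes that are higher in oocytes of IgY-deficient hens. Most measured members differed little: 59 of 73 were within 1.5-fold, and the median log2 ratio was -0.0020, against 0.013 over all 10168 measured genes. In either direction and at any size, 35 of the 73 (47.9%) had the higher signal in the Bx pool, where 52.4% of all measured genes had. By 1.5-fold or more, 8 members were higher in the Bx pool (11.0%), where 4.11% of all measured genes were, and 6 members were lower (8.22%), where 3.63% of genes were. The higher ones were CXCR7, MX1, IL6, IL1RL1, IL17RA, JAK2, IL22RA1 and TNFRSF18, and the lower ones TLR4, IRF5, IL1R1, CXCL13L3, IL9R and TNFRSF19. One member, CXCR7, reached 2-fold higher, where 0.639% of all genes did, and 0 members were 2-fold lower, where 0.423% did.

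The members past 1.5-fold were mostly dim. In 4 groups of 2542 genes each, from dimmest to brightest, the SD of the log2 ratio over all genes was 0.49, 0.31, 0.21 and 0.15, which includes any real difference. Of the measured members 34 fell in the dimmest group (mean signal up to 180), 23 in the second, 13 in the third and 3 in the brightest. In the dimmest group 12 of 34 members were past 1.5-fold in either direction, where 22.9% of all genes were. In the second group 2 of 23 were, against 6.22% of genes. In the third and the brightest group 0 of 13 and 0 of 3 were, against 1.49% and 0.354%. Without regard to brightness, 14 of 73 members (19.2%) and 7.74% of all genes were past 1.5-fold in either direction.

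**Figure D2:**
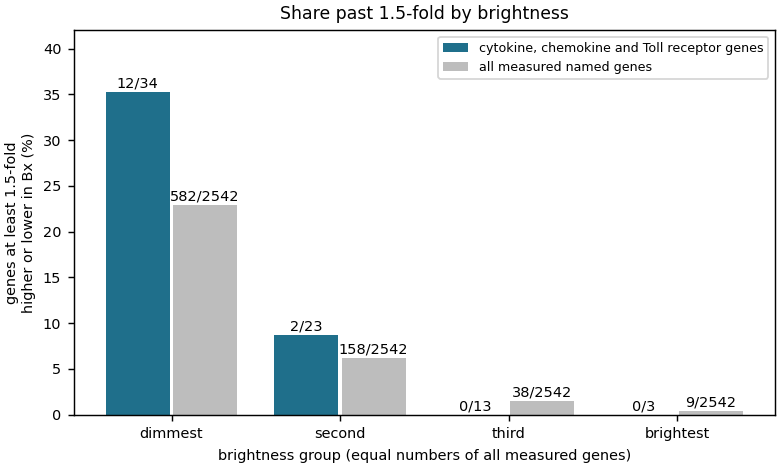
Percentage of genes at least 1.5-fold higher or lower in the Bx pool (y axis) in 4 brightness groups (x axis), for the members and for all measured genes, with counts above the bars. The 12 members of the dimmest group make up most of the 14 past 1.5-fold, and none of the 16 members in the 2 brighter groups passed.

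**Figure D3:**
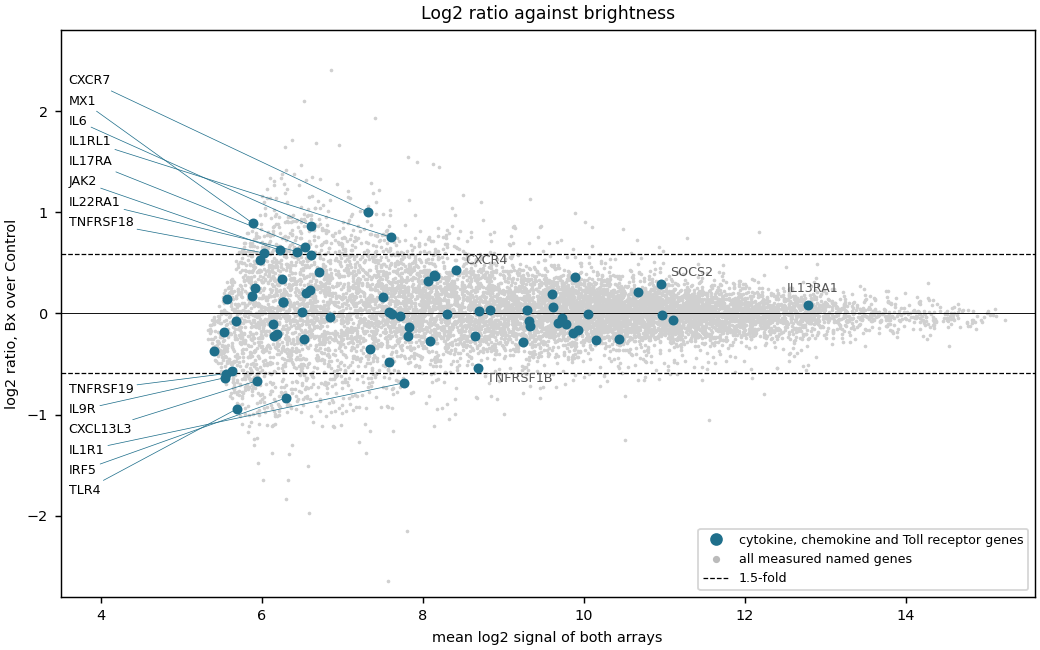
Log2 ratio of Bx over control (y axis) against mean log2 signal (x axis) for the 73 measured members and all 10168 measured genes, with dashed lines at 1.5-fold. The labelled members past 1.5-fold lie at the dim end, and bright members such as IL13RA1 lie close to 0.

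Among Toll receptors, which recognise microbial products, 3 of 8 were measured (37.5%, against 78.2% of all named genes). TLR4, the receptor for lipopolysaccharide, had a signal of 37.4 in the Bx pool and 71.8 in the control pool, 1.92-fold lower (log2 ratio -0.94). The Bx value lies just above that array's floor of 36.4. LY96 (MD-2), the protein that presents lipopolysaccharide to TLR4, was also lower, at 73.8 in the Bx pool and 123 in the control pool (-0.74). Both rest on a single probe set in the dimmest group, where the SD over genes was 0.49. TLR21, which senses unmethylated CpG DNA in chickens, had 91.1 in the Bx pool and 90.4 in the control pool (0.011). Its other 2 probe sets were above the floor in the Bx pool alone, at 59.1 in the Bx pool and 31.7 in the control pool on one and 46.4 in the Bx pool and 26.3 in the control pool on the other. The latter carries the letter A in its ID. TLR3, the receptor for double-stranded RNA, had 100 in the Bx pool and 87.0 in the control pool (0.21). Another TLR3 probe set, whose ID carries the letter A, went the opposite way, under the floor in the Bx pool (6.40) and at 46.4 in the control pool. The one of the same ID with S in place of A was under the floor on both arrays, at 10.7 in the Bx pool and 4.83 in the control pool. TLR15, a Toll receptor known from birds and reptiles, was under the floor in the Bx pool (26.6) and at 97.3 in the control pool, at least 2.67-fold lower. This value, and its place among the members that passed the floor in one pool, rest on a probe set whose ID carries the letter A, read here as antisense though no file explains it. Its other probe sets did not follow: the one of the same ID with S in place of A was above the floor in the Bx pool (47.0) and under it in the control pool (37.1), and another was at 36.7 in the Bx pool and 44.9 in the control pool (-0.29). TLR1A, TLR2A, TLR5 and TLR7 were under the floor on both arrays.

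The interleukin 1 receptor family held members on both sides. IL1R1, the signalling receptor for interleukin 1, had 172 in the Bx pool and 277 in the control pool, 1.61-fold lower (-0.68). IL1RL1 (ST2), known in mammals as the receptor for interleukin 33, had 253 in the Bx pool and 150 in the control pool, 1.69-fold higher (0.75). These were the 2 members past 1.5-fold in the second brightness group, where the SD over genes was 0.31. The other probe set of IL1RL1 was under the floor on both arrays, at 17.8 in the Bx pool and 22.4 in the control pool. IL1RAP, the shared accessory chain of the family, differed little, at 79.8 in the Bx pool and 73.8 in the control pool (0.11). IL1R2, a decoy receptor, was 35.8 in the Bx pool, under the floor, and 43.2 in the control pool, barely above it. IL18, a ligand of the same family, was at 0.25 on 1 probe set, while its other probe set was under the floor in the Bx pool (22.6) and above it in the control pool (52.9). IL1B itself was under the floor in both pools.

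Among the other interleukins, IL6, a cytokine of the acute phase response, had 132 in the Bx pool and 72.0 in the control pool, 1.83-fold higher (0.87). A second IL6 probe set, of the same ID with A in place of S, was under the floor in the Bx pool (22.9) and at 50.2 in the control pool, and the third was under the floor on both arrays. The higher value of IL6 rests on 1 of its 3 probe sets, and the ratio was -0.16 with the mean over all probe sets. IL6ST (gp130), the signalling chain that IL6 shares with related cytokines, was under the floor in both pools on its 1 probe set. IL4, a cytokine of type 2 responses, was 299 in the Bx pool and 239 in the control pool (0.32), with a second measured probe set at 0.08. The remaining one was above the floor in the Bx pool alone (39.8, against 6.27 in the control pool), and the mean over all 3 gave 1.02. IL9, a growth factor for T cells and mast cells in mammals, had nearly equal signals of 1063 in the Bx pool and 1066 in the control pool. IL12A, a subunit of interleukin 12, was at -0.20.

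Interleukin receptors were the largest class, with 16 of 30 measured (53.3%, against 78.2% of all named genes). Past 1.5-fold, 3 were higher (18.8%) and 2 lower (12.5%), where 4.11% and 3.63% of all measured genes were. IL17RA, IL22RA1 and IL9R lie in the dimmest group, in which 22.9% of genes were past 1.5-fold in either direction. IL1RL1 and IL1R1 lie in the second group, in which 6.22% were. The median log2 ratio of the measured interleukin receptors was near 0 (0.041), and between -0.0065 and 0.064 under the alternatives. IL13RA1, a chain of the receptor for interleukins 4 and 13, had 7273 in the Bx pool and 6865 in the control pool, and both probe sets were higher, at 0.17 ± 0.12 (SD, 2 probe sets). Its partner IL4R was at -0.13, while its other 2 probe sets were above the floor in the Bx pool alone, and IL13RA2, a decoy for interleukin 13, at -0.07. IL17RA, the common receptor chain for interleukin 17, had 116 in the Bx pool and 73.8 in the control pool (0.65). Its other measured probe set went the opposite way, with 74.5 in the Bx pool and 87.7 in the control pool, so that the mean was 0.21 ± 0.63 (SD, 2 probe sets). IL22RA1, a receptor chain for interleukin 22, was 107 in the Bx pool and 70.2 in the control pool, 1.53-fold higher on its 1 probe set. IL10RA, the ligand-binding chain for interleukin 10, lay just under that size at 119 in the Bx pool and 80.1 in the control pool (1.49-fold). IL9R was 37.4 in the Bx pool, close to the floor, and 58.1 in the control pool, 1.55-fold lower. IL20RA, a receptor chain for interleukins of the IL20 group, had 792 in the Bx pool and 847 in the control pool, and its 3 probe sets averaged 0.03 ± 0.12. IL5RA was at -0.27, IL31RA at -0.35 and IL23R at -0.00054, and IL17RD was at 0.23 with 2 probe sets in opposite directions.

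CXCL12 differed little, and both of its receptors had the higher signal in the Bx pool. CXCL12, a chemokine that holds and guides many cell types including germ cells, had 1999 in the Bx pool and 2022 in the control pool on its brightest probe set (-0.02). Its 3 measured probe sets averaged 0.18 ± 0.17 (SD). CXCR7, an atypical receptor that binds CXCL12 and clears it, had 227 in the Bx pool and 113 in the control pool, 2.0-fold higher on its 1 probe set. CXCR4, the signalling receptor for CXCL12, had 397 in the Bx pool and 294 in the control pool, 1.35-fold higher. All 3 measured chemokine receptors had the higher signal in the Bx pool, the third being CCR8L at 49.7 in the Bx pool and 45.0 in the control pool, close to the floors. Of all measured genes 52.4% had the higher signal in the Bx pool. A further chemokine receptor, CCR8, was above the floor in the control pool alone (62.1, against 8.53 in the Bx pool). The median log2 ratio was 0.43 over the 3 measured receptors, but -0.30 over all 9 chemokine receptors when no floor was used.

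Of the 6 measured chemokines 5 were lower in the Bx pool, by small amounts in most, where 52.4% of all measured genes were higher. The 5 include CXCL12, lower on its brightest probe set (-0.02) but with a mean of 0.18 over 3 probe sets. CXCL13L3 and CXCL13L2 are 2 genes annotated as like CXCL13, the chemokine that draws B cells into follicles in mammals. CXCL13L3 had 48.7 in the Bx pool and 77.3 in the control pool, 1.59-fold lower, and its 2 measured probe sets averaged -0.57 ± 0.14 (SD). It was the only 1 of the 14 members past 1.5-fold with at least 2 measured probe sets that went the same way. Its second probe set had 38.8 in the Bx pool, just above that array's floor of 36.4, and 53.6 in the control pool. CXCL13L3 lies in the dimmest group, where the SD over genes was 0.49. CXCL13L2 went the other way, with 86.0 in the Bx pool and 67.8 in the control pool (0.34). CCLL4 was 372 in the Bx pool and 433 in the control pool (-0.22), CCL19 was at -0.22 and CCL1 at -0.10. CCL4, an inflammatory chemokine of the MIP-1 group, was under the floor in the Bx pool (16.4) and at 96.1 in the control pool, at least 2.64-fold lower, and its other probe set was under the floor on both arrays. With TLR15 it made 2 members at least 1 log2 unit above the floor in the control pool and under it in the Bx pool, where 0.254% of all named genes were. In the opposite direction 0 members were, against 0.73% of genes. CCR8 was under the floor in the Bx pool (8.53) and 62.1 in the control pool, at least 1.71-fold lower.

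TNF receptors were measured in 10 of 13 cases (76.9%, against 78.2% of all named genes). Past 1.5-fold, 1 of the 10 was higher and 1 lower, where 4.11% and 3.63% of all measured genes were. These 2, TNFRSF18 and TNFRSF19, lie in the dimmest group, in which 22.9% of genes were past 1.5-fold in either direction. TNFRSF1B, the second receptor for TNF, had the difference that most probe sets shared: 343 in the Bx pool and 497 in the control pool on the brightest (1.45-fold lower), 211 and 244 on the next, 122 and 159 on the third and 86.5 and 96.7 on the fourth, Bx before control each time. The 4 ratios averaged -0.32 ± 0.17 (SD) and all were lower in the Bx pool. TNFRSF1A, the main death-domain receptor for TNF, was nearly equal, at 638 in the Bx pool and 622 in the control pool (0.04). TNFRSF21 (death receptor 6) had 2165 in the Bx pool and 2258 in the control pool (-0.06). TNFRSF18 (GITR) was 80.3 in the Bx pool and 53.0 in the control pool, 1.51-fold higher, with its other 2 probe sets under the floor on both arrays. TNFRSF19 (TROY) was 38.3 in the Bx pool and 57.8 in the control pool, 1.51-fold lower, while another of its probe sets was above the floor in the Bx pool alone.

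The remaining TNF receptors included TNFRSF8 (CD30) at 0.37, TNFRSF9 (4-1BB), whose 3 probe sets averaged 0.17 ± 0.13, and TNFRSF10B, a receptor for TRAIL, at -0.48. A second TNFRSF10B probe set went the opposite way, at 52.3 in the Bx pool and under the floor in the control pool (8.44). TNFRSF11A (RANK) was at -0.23, with its decoy TNFRSF11B (osteoprotegerin) at 0.012 and its ligand TNFSF11 (RANKL) at -0.03. TNFSF10 (TRAIL), a death ligand, had 1038 in the Bx pool and 1242 in the control pool (-0.26), but its 5 measured probe sets spread from -0.47 to 0.73, with a mean of -0.0100 ± 0.46 (SD), and 1 more was above the floor in the Bx pool alone (61.7, against 3.56 in the control pool). Its ratio was 0.57 with the mean over all probe sets and 0.73 without _s_at probe sets. TNFSF15 was at -0.18. TNFSF13B (BAFF), the survival factor for B cells, was 61.9 in the Bx pool and under the floor in the control pool (12.9), at least 1.45-fold higher, and its 2 other probe sets were under the floor on both arrays. It was named after its value was seen.

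**Figure D4:**
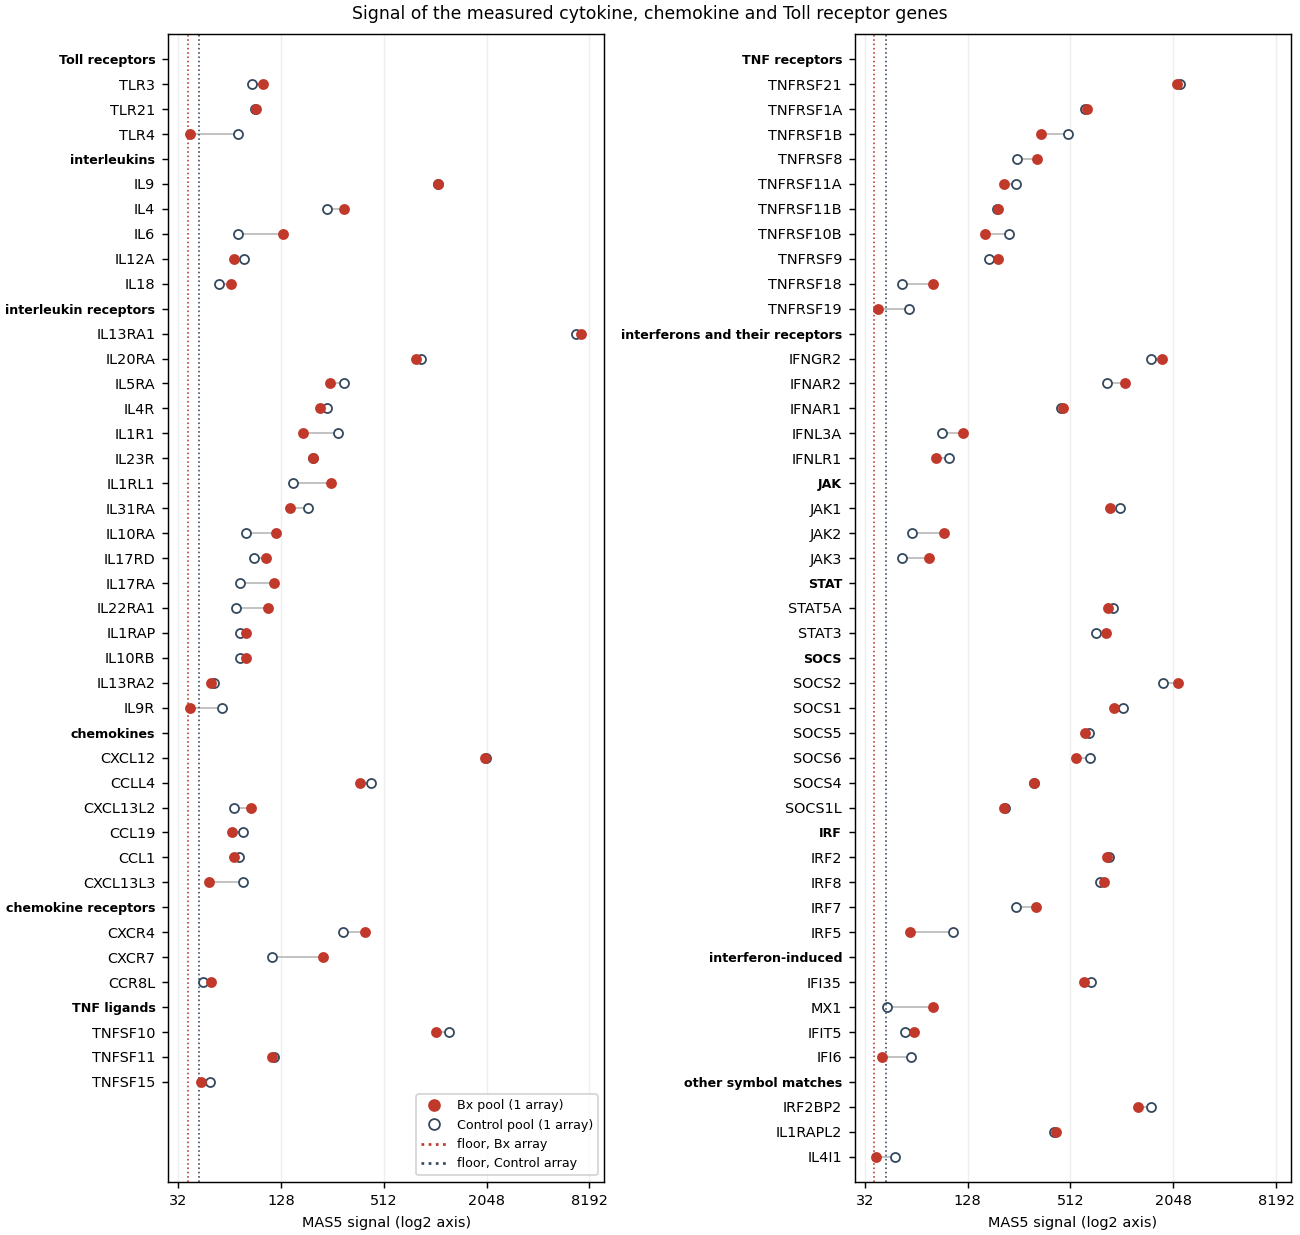
MAS5 signal (x axis, log2) of the 73 measured members (y axis, by role) in the Bx pool and the control pool, 1 array each, with dotted lines at the floor of each array. CXCR7, IL6, IL1RL1 and IL1R1 show wide gaps, and CXCL12, IL9, SOCS4 and IL23R have overlapping points.

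The measured interferon receptors were all within 1.5-fold. IFNGR2 and IFNAR2 were higher in the Bx pool on all their measured probe sets, IFNAR1 was near 0 and IFNLR1 was lower. IFNGR2, the signalling chain of the interferon gamma receptor, had 1752 in the Bx pool and 1516 in the control pool (0.21). All 4 of its measured probe sets were higher, with a mean log2 ratio of 0.27 ± 0.11 (SD). The dimmest of them, whose ID carries the letter A, had 61.4 in the Bx pool and 45.8 in the control pool (0.42). IFNAR2, a chain of the type I interferon receptor, had 1076 in the Bx pool and 838 in the control pool (0.36), and its 3 probe sets averaged 0.23 ± 0.11. IFNAR1, the other type I chain, was 463 in the Bx pool and 452 in the control pool, on 2 probe sets that went opposite ways (-0.04 ± 0.11). The sign for its brightest probe set also turned under quantile normalization (-0.01) and loess (-0.0010). IFNLR1, the receptor chain for type III interferon, was at -0.26, and the type III interferon gene IFNL3A at 0.41, with 121 in the Bx pool and 91.0 in the control pool. IFNG was under the floor in both pools.

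Interferon-induced genes and IRF factors held both higher and lower members. MX1, a GTPase induced by interferon, had 80.5 in the Bx pool and 43.4 in the control pool, 1.86-fold higher. The control value is barely above that array's floor of 42.6. IFIT5, another interferon-induced gene, was at 0.17, and IFI35 at -0.13 with 619 in the Bx pool and 676 in the control pool. IFI6 was at -0.57, with 40.5 in the Bx pool, close to the floor, and 60.1 in the control pool. IFI30, a lysosomal thiol reductase gene, was 67.6 in the Bx pool and under the floor in the control pool (7.43), at least 1.59-fold higher. IRF1, an activator of interferon-responsive genes, was 68.6 in the Bx pool and under the floor in the control pool (29.3), at least 1.61-fold higher. These last 2 genes were named after their values were seen. IRF5 was 58.9 in the Bx pool and 105 in the control pool, 1.78-fold lower on its 1 measured probe set. IRF7, an inducer of type I interferon, was 323 in the Bx pool and 248 in the control pool (0.38). IRF2, an antagonist of IRF1, had 834 in the Bx pool and 860 in the control pool, and its 3 measured probe sets averaged -0.13 ± 0.08 (SD). IRF8, a factor of myeloid and B cells, had 802 in the Bx pool and 765 in the control pool (0.07).

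Of the 12 JAK, STAT and SOCS genes all but SOCS3 were measured. The STAT and SOCS genes were within 1.5-fold, while JAK2 and JAK3, both dim, were higher in the Bx pool by 1.54-fold and 1.44-fold. JAK1, used by most cytokine receptor families, had 876 in the Bx pool and 1002 in the control pool (-0.19), and its 3 probe sets averaged 0.013 ± 0.19 (SD). JAK2, the kinase of growth hormone and prolactin receptors, had 92.9 in the Bx pool and 60.2 in the control pool, 1.54-fold higher. Its second probe set went the opposite way, with 53.7 in the Bx pool and 57.9 in the control pool, and the mean was 0.26 ± 0.52. JAK3, the partner of the common gamma chain in lymphocytes, was 75.8 in the Bx pool and 52.6 in the control pool (0.53). STAT3, the main transcription factor behind IL6 family receptors, had 832 in the Bx pool and 728 in the control pool, and all 4 probe sets were higher, at 0.15 ± 0.07. STAT5A, the prolactin-responsive STAT, had 847 in the Bx pool and 908 in the control pool (-0.10).

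Of the 6 measured SOCS genes 5 were lower in the Bx pool, where 52.4% of all measured genes were higher. The median log2 ratio of the 6 was -0.05, and none was past 1.5-fold. Of those counted as lower, SOCS4 and SOCS1L lay near 0, and SOCS5 is counted by its brightest probe set. SOCS2, a regulator of growth hormone signalling, was the higher one, at 2198 in the Bx pool and 1791 in the control pool (0.30). SOCS1, an inhibitor of interferon receptor signalling, had 921 in the Bx pool and 1035 in the control pool (-0.17). SOCS6 was at -0.29, SOCS4 at -0.0020 and SOCS1L at -0.02. SOCS5 was 624 in the Bx pool and 657 in the control pool (-0.07), with 3 probe sets in both directions (mean 0.11 ± 0.41, SD). SOCS3, the inhibitor of IL6 family receptors, was under the floor in the Bx pool (28.9) and 52.4 in the control pool, at least 1.44-fold lower.

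Separate probe sets of one gene gave the only repeat measurement on these arrays. At least 2 probe sets were above the floor on both arrays for 19 of the 73 measured members, and in 10 of these all went the same way (52.6%), against 45.5% of 4870 genes. The other 54 members rest on 1 measured probe set. The members with at least 3 measured probe sets, all the same way, were IFNGR2, IFNAR2, STAT3 and TNFRSF9 on the higher side and TNFRSF1B and IRF2 on the lower side, all within 1.5-fold. For IFNGR2 and TNFRSF9 these include a probe set whose ID carries the letter A. The measured members IFIT5, IL13RA2 and IL4I1 took their value from such a probe set. An SD between probe sets shows how far they disagree on these same arrays. It covers neither variation between birds nor error that all probe sets of an array share, and probe sets of a gene can share sequence.

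**Figure D5:**
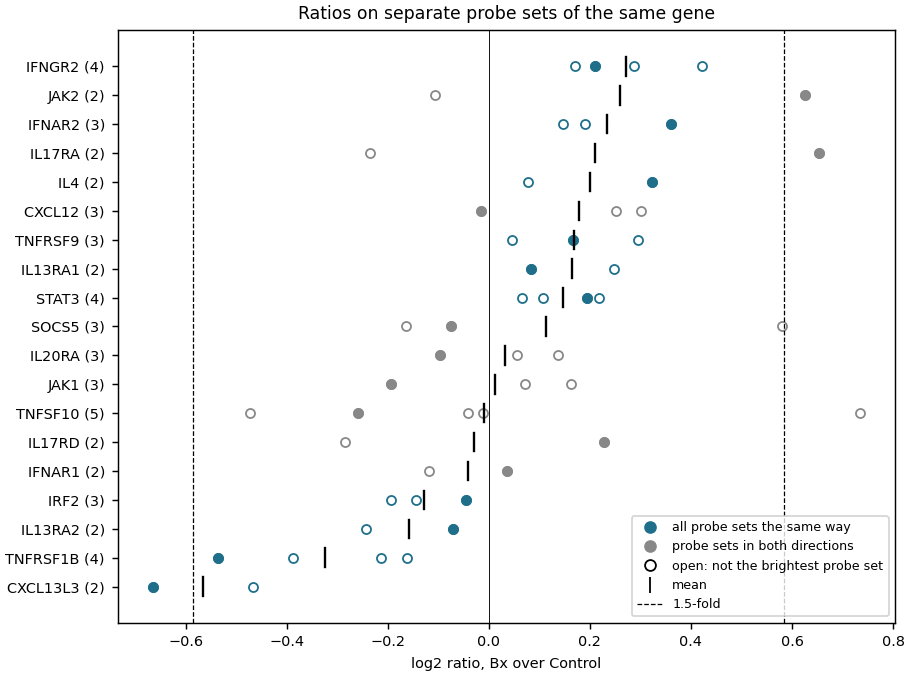
Log2 ratio of Bx over control (x axis) on each measured probe set of the 19 members that had at least 2 (y axis, number of probe sets in brackets). Filled points mark the brightest probe set and vertical bars the mean; IFNGR2 lies to the right of 0 and TNFRSF1B to the left on all 4 probe sets, while TNFSF10 spreads over both sides.

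Genes of the same pathways with other symbols were measured more often than the members. Without regard to brightness, 11.9% of them and 19.2% of members were past 1.5-fold in either direction. These shares were not compared at equal brightness, so they do not show that members differed more. Of 91 such genes on the array 67 were measured (73.6%, against 78.2% of all named genes), with a median log2 ratio of -0.05, and past 1.5-fold 5 were higher (7.46%) and 3 were lower (4.48%) in the Bx pool, where 4.11% and 3.63% of all measured genes were. All 8 lie in the dimmest brightness group, in which 22.9% of genes were past 1.5-fold in either direction. The 3 brightest differed little on their brightest probe sets. They were HSP90B1, a chaperone of Toll receptors (19302 in the Bx pool and 19321 in the control pool), TRIM25, a ubiquitin ligase of RNA sensing (5246 in the Bx pool and 5985 in the control pool), and the signal-transducing adaptor STAM (3967 in the Bx pool and 3788 in the control pool). TRIM25 had 3 measured probe sets in both directions, with a mean of 0.21 ± 0.36 (SD). CD74, the invariant chain of MHC class II and a receptor for the cytokine MIF, was also bright but lower, at 2212 in the Bx pool and 3182 in the control pool (1.44-fold), and its 3 probe sets were all lower, at -0.44 ± 0.08 (SD). In its brightness group the SD over all genes was 0.15. It was named after its value was seen. MYD88, the Toll adaptor, named for its role after its values were seen, was 821 in the Bx pool and 803 in the control pool (0.03), but its 2 probe sets averaged 0.60 ± 0.80 (SD).

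The 5 higher genes came from 4 of the lists. MAP3K14 (NIK), the kinase that starts the alternative pathway, had 230 in the Bx pool and 110 in the control pool, 2.09-fold higher, and its 2 probe sets averaged 0.63 ± 0.61 (SD). TRAF3, an adaptor that marks NIK for degradation, was 164 in the Bx pool and 94.0 in the control pool (0.81), with a mean of 0.49 ± 0.42 over 3 probe sets, all higher. NFKB2, the NF-kappa-B subunit processed in that pathway, was 83.2 in the Bx pool and 54.1 in the control pool (0.62), and TRAF1 110 in the Bx pool and 72.4 in the control pool (0.60). MAVS, the mitochondrial adaptor of RNA sensing, was 173 in the Bx pool and 112 in the control pool (0.63). The lower genes were NFKBIE, an inhibitor of NF-kappa-B, at 75.4 in the Bx pool and 147 in the control pool (-0.97), LY96, given above with TLR4, and HELZ2, a helicase gene, at 36.9 in the Bx pool and 59.9 in the control pool (-0.70). The HELZ2 value in the Bx pool lies barely above that array's floor of 36.4 and rests on 1 measured probe set. NFKB1, the classical subunit, was at 0.14, and NFKBIA, the main inhibitor, at 0.03. Among other genes that act with TRAF3 and NIK, CHUK was at -0.22, TRAF2 at 0.09, TRAF5 at -0.20, BIRC2 at 0.03 and CD40 at 0.18. The BIRC2 value is that of its brightest probe set, and its 3 measured probe sets averaged 0.44 ± 0.38 (SD), none of them lower. These 7 genes were also named after their values were seen.

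The members under the floor in both pools numbered 43, and 42 of them had no probe set above the floor on either array. Their signals ran up to 35.6 in the Bx pool and 42.5 in the control pool, and no ratio is given for them. Beside those named above they were CCL17, CCLI5, CXCL14, CCR4, CCR6, CCR7, CCR9 and CXCR5, the interleukin genes IL12B, IL16 and IL17D, and the receptor genes IL2RA, IL2RG, IL7R, IL11RA, IL12RB2, IL17REL, IL18R1, IL1RL2, IL20RB and IL21R. The others were TNFSF4, TNFSF8, TNFRSF6B, IFIH1, IFI27L2 and IRF9. CCR7 had a second probe set, whose ID carries the letter A, above the floor in the Bx pool alone. The members above the floor in one pool, beside those named above, were IL15RA, IL17A, IL22RA2, IFNGR1, IL1RAPL1 and TNFRSF25 in the Bx pool and IL22 and TNFRSF14 in the control pool, each less than 1.5-fold above the other array's floor. IFITM5 was above the floor in the Bx pool alone (39.7), but under the value of the floor on the control array. Of the genes that match by symbol prefix alone, IRF2BP2, a binding partner of IRF2, was 1274 in the Bx pool and 1519 in the control pool (-0.25), and IL1RAPL2 was at 0.02. IL4I1, an amino acid oxidase gene, was at -0.37, with 37.4 in the Bx pool, close to the floor, and 48.4 in the control pool. Another IL4I1 probe set was above the floor in the control pool alone.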

How the data were processed

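Total RNA (100 ng) from germinal discs pooled over 3 birds was labelled for the GeneChip Chicken Genome Array, per the labels' protocols. The deposited intensity values are linear MAS5 signals made by the authors, per the submitters' processing notes; the sources used here give neither version nor scaling target. Trimmed of 2% at each end, signals averaged 500.1 on either array, so a change in total mRNA would not show. No pseudocount was added before log2. Array controls (96 probe sets) were left out, and the 746 non-chicken probe sets set the floor. Where a value was under the floor on 1 array, the bound is the signal above the floor over the other array's floor. Names come from GEO's platform annotation: 27166 of 37693 chicken probe sets had 1 symbol, 177 several and 10350 none. All 133 members kept their symbol in RefSeq's GRCg7b table, which was used for names and gene order only.

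With 1 array per group no test was made, and the number of arrays limits the precision. Named are all measured members past 1.5-fold, the 15 brightest, the 3 brightest of each role class, and members at least 1 log2 unit above the floor on 1 array and under it on the other; others were added to account for every member. Pathway genes are named by the same fold and as the 3 brightest, and a few others were added by role. The members, lists and thresholds were chosen with earlier results of these data known. Alternatives were median centring, quantile normalization, loess (lowess fraction 0.3), no floor, a stricter floor, the chicken probe sets' 75th percentile (498 on the Bx and 484 on the control array), a pseudocount of 16, the mean over probe sets, and leaving out _x_at and _s_at probe sets, genes with opposed probe sets, genes matching by prefix alone, or (added after seeing the data) probe sets whose ID carries the letter A, read here as antisense orientation, a meaning that no file used here states. The functions were tested on simulated data. Python 3.11.15, pandas 2.3.3 and statsmodels 0.14.6 were used.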

Additional observations from a re-analysis of the deposited data

How the results depend on the processing

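No paired analysis was possible because each group had 1 array. Scaling changed little: the median log2 ratio over all genes, 0.013 as reported, was -0.014, 0.0046 and 0.0038 under median centring, quantile normalization and loess, and the 1.5-fold list of 14 members kept 13, 12 and 12. CXCR7 lay at the 2-fold limit, so 0 members were 2-fold higher under each of these 3 scalings, and also with a pseudocount. With the stricter floor CXCR7 was not measured, and 0 members were 2-fold higher. The floor mattered most: without it all 133 members counted as measured, 28 were at least 1.5-fold higher and 32 lower, 18 at least 2-fold higher and 17 lower. With the stricter floor 20 members were measured, 0 were past 1.5-fold in either direction, and their median log2 ratio was -0.053. All 14 members past 1.5-fold were under that floor, so this 0 says nothing about their ratios. The median was -0.042 after quantile normalization. A pseudocount of 16 left 4 members higher and 3 lower at 1.5-fold. With the mean over probe sets 5 were higher and 3 lower at 1.5-fold and 3 were 2-fold higher. Of the 14, 6 stayed past 1.5-fold (CXCR7, MX1, IL22RA1, TLR4, IL1R1 and IL9R), but each has a single probe set, so averaging could not change it. The other 8, all with several probe sets, were not past 1.5-fold any more, 4 of them because they were no longer measured. IL1RL1 came to 0.21, IL4 to 1.02 and TNFSF10 to 0.57 (0.73 without _x_at and _s_at probe sets), and IL6 reversed to -0.16. None of the 14 takes its value from an _x_at or _s_at probe set or from one whose ID carries the letter A. Leaving such probe sets out therefore could not remove any of them, and all 14 stayed. Leaving out genes with opposed probe sets took out JAK2 and IL17RA by its own rule, which left 6 members higher and 6 lower at 1.5-fold. None of the 14 matches by prefix alone, so leaving out genes that do could not remove any either. Ratios of members near the floors (such as TLR4, IL9R, TNFRSF19, MX1, IFI6 and IL4I1) are limited by signal over background.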

Other observations

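Several members lie next to each other on the chicken chromosomes, with at most 3 other protein-coding genes between them in the RefSeq order of GRCg7b. These runs were looked for after the values had been seen, and they are given as descriptions. IFNAR2, IL10RB, IFNAR1 and IFNGR2, receptor chains of the class II cytokine family, form a run of 4. All 4 had the higher signal in the Bx pool as reported, where 52.4% of all measured genes had. Their log2 ratios were 0.36, 0.11, 0.04 and 0.21. IL10RB was dim, at 79.7 in the Bx pool and 73.8 in the control pool, and IFNAR1 was near 0, on probe sets in both directions, and turned to -0.01 under quantile normalization and -0.0010 under loess. In the run of IL1R2, IL1R1, IL1RL2, IL1RL1 and IL18R1, the 2 measured genes differed in opposite directions, IL1R1 by -0.68 and IL1RL1 by 0.75. In another run IL4R (-0.13), IL21R (under the floor in both pools) and IL9R (-0.63) lie together, and in one more IRF1, IL13 and IL4, of which IL4 was measured on both arrays (0.32). IFNGR1, IL22RA2 and IL20RA form the last run of at least 3 members. There IL20RA was at -0.10, and the others were above the floor in the Bx pool alone. IFNGR1 had nearly equal signals, 45.5 in the Bx pool and 42.3 in the control pool, just under that array's floor of 42.6.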
